A study of Mus musculus with 3 samples.

Results

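The leukocyte adhesion genes of endothelium were followed in isolated brain vessels as a list of 10 genes: the selectins Sele and Selp, the immunoglobulin-family ligands Icam1, Icam2, Vcam1 and Madcam1, the cell contact molecules Alcam and Mcam, the chemokine-binding receptor Ackr1 and the diapedesis molecule Cd99l2. Each gene was found through the Ensembl identifiers of its transcripts, and the row holding most counts over the 3 libraries stood for it. Of the 10 genes, 9 had a row, among 29905 genes in all. No transcript of Selp was matched, and Selp was not analysed here.

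Polyadenylated RNA was sequenced from brain vessels of mice aged 3 months in 3 libraries, each a pool of vessels from several males. The C57BL6 WT library came from wild-type mice of the C57BL6 strain, and the C57BL6-BALB/c WT library from wild-type mice of mixed background. The Cx30-/- library came from mice lacking Cx30 (Gjb6), a connexin of astrocytes, in every cell of the body. Its background is C57BL6 in the sample labels and mixed C57BL6 and BALB/c in the study's methods, so that each WT library may or may not match it. The study set out to find transcripts of the vessel wall that change without Cx30 whatever the background, which gives 2 comparisons, Cx30-/- with each WT library, and a WT comparison as a reference. Both Cx30-/- comparisons share the Cx30-/- library. With 1 library per group (no replicates), no test was possible and no difference can be set against a spread between mice or preparations.

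Deposited counts summed to between 50375426 and 60725557 per library, where a read on a shared exon is counted for each transcript. The library-wide totals implied by the deposited fractions were lower, between 20654144 and 24830975. Gjb6 had 2899 counts in C57BL6 WT, 2246 in C57BL6-BALB/c WT and 96 in Cx30-/- vessels. All 12 genes of an endothelial marker list were detected, with summed levels of 144544, 92386 and 168077 normalized counts in the same order. Markers of other cells were present as well: the summed levels of 10 mural genes were 83422, 82992 and 101911, those of 8 neuronal genes 40196, 48541 and 28144, and those of 8 choroid plexus genes 148726, 58069 and 78587 normalized counts.

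White blood cells leave the blood in steps. Selectins on the endothelium catch passing leukocytes and let them roll, chemokines held on the vessel surface activate leukocyte integrins, and the integrins then bind ICAM and VCAM molecules, so that the cell stops, crawls and passes between or through endothelial cells. In the healthy brain this traffic is sparse, and it takes place mainly in post-capillary venules. Selectins and part of the immunoglobulin-family ligands are known to be induced by inflammatory cytokines through NF-kappaB.

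RefSeq promoters were on hand for 8 of the 10 genes, without Icam2 and Vcam1. The 250 bases before the start are shown for 4 of them, of middle and low level as given in the next paragraphs. Icam1 and Cd99l2 had 373 or more normalized counts per kb, and Sele and Madcam1 were close to the limit of detection. The windows of the more abundant Mcam and Ackr1, and those of Alcam and Selp, are not shown. The coordinates are those of GRCm38.p6, chr9:21015690-21015939 (plus strand) for Icam1, chrX:71492850-71493099 (minus strand) for Cd99l2, chr1:164047984-164048233 (plus strand) for Sele and chr10:79664309-79664558 (plus strand) for Madcam1. Each reads 5′ to 3′ along its gene, and capitals mark matches to the motifs searched on both strands, which were the GC box GGGCGG (also as CCGCCC), the TATA box TATAAA, the AP-1 site TGANTCA and the NF-kappaB consensus.
Icam1: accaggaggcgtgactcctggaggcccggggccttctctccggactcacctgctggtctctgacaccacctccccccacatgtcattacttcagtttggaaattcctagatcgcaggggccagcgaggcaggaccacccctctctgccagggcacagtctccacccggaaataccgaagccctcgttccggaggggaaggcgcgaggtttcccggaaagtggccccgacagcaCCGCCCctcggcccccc
Cd99l2: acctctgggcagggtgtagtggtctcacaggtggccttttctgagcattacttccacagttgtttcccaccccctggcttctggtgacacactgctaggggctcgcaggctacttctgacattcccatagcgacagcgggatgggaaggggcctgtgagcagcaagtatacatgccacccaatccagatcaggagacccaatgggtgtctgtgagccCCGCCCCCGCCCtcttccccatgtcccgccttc
Sele: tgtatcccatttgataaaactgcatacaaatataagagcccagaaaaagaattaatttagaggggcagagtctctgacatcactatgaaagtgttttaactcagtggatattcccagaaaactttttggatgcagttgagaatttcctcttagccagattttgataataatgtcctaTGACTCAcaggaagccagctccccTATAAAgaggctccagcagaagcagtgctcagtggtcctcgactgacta
Madcam1: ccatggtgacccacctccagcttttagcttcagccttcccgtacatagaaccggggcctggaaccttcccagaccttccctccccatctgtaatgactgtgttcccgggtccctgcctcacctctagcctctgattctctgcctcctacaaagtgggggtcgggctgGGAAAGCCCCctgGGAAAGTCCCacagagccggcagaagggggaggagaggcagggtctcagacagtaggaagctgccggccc

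GC boxes were present in the windows of 4 genes and absent from those of Sele, Selp, Madcam1 and Ackr1. They were found before Icam1 (1 match), Cd99l2 (2), Alcam (2) and Mcam (5), and 32.7% of 32851 RefSeq promoter windows of the same length held at least 1. The Sele window was the 1 window of the 8 with a TATA box (12.4% of all windows), and Sele and Selp each held an AP-1 match (6.75% of all windows). The pair of NF-kappaB matches lay before Madcam1, 83 to 74 and 70 to 61 bases ahead of its start, a motif found in 7.25% of all windows. The window of Ackr1 held no match to any of the motifs. GC content was 65.2% for Icam1, 59.2% for Cd99l2, 40.4% for Sele and 61.2% for Madcam1, against a median of 52.4% over all windows. Only exact matches to each motif were marked, and NF-kappaB sites that vary from the consensus were not searched for. The lack of a mark, as before Icam1 and Sele for NF-kappaB, therefore does not show that such a site is absent. A match describes the letters of the window and says nothing of binding in these vessels. The starts are those of RefSeq. By the gene spans given with each gene below, the Alcam window lies inside the gene, and those of Mcam and Ackr1 lie mostly inside it. For these genes the window is not simply the sequence upstream of the annotated gene.

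Levels of different genes were compared as normalized counts per kb of transcript, with 95% exact Poisson intervals, which cover counting error only, as do all intervals given here. In C57BL6 WT vessels 4 genes led: Vcam1 had 1905 normalized counts per kb, Ackr1 1803, Icam2 1744 and Mcam 1733, and each interval overlapped that of the next gene, while that of Vcam1 lay above those of Icam2 and Mcam. Cd99l2 followed with 667, Icam1 with 377 and Alcam with 318, each apart from its neighbours. Sele had 13.5 and Madcam1 5.53 normalized counts per kb. Icam1, itself inducible by cytokines, was at 28.0 times the level of Sele per kb.

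The order at the top differed between libraries. In C57BL6-BALB/c WT vessels Mcam led with 1791 normalized counts per kb, followed by Ackr1 with 1404 and Vcam1 with 1361, whose intervals overlapped, and by Icam2 with 1105. In Cx30-/- vessels Mcam had 2149 and Vcam1 2060, with overlapping intervals, Icam2 1711 and Ackr1 1289. Below them, Cd99l2 (528) and Icam1 (477) overlapped in Cx30-/- vessels, whereas Alcam (472) stood above Icam1 (373) in C57BL6-BALB/c WT vessels. Sele and Madcam1 were the lowest of the 9 genes in all 3 libraries.

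**Figure D1:**
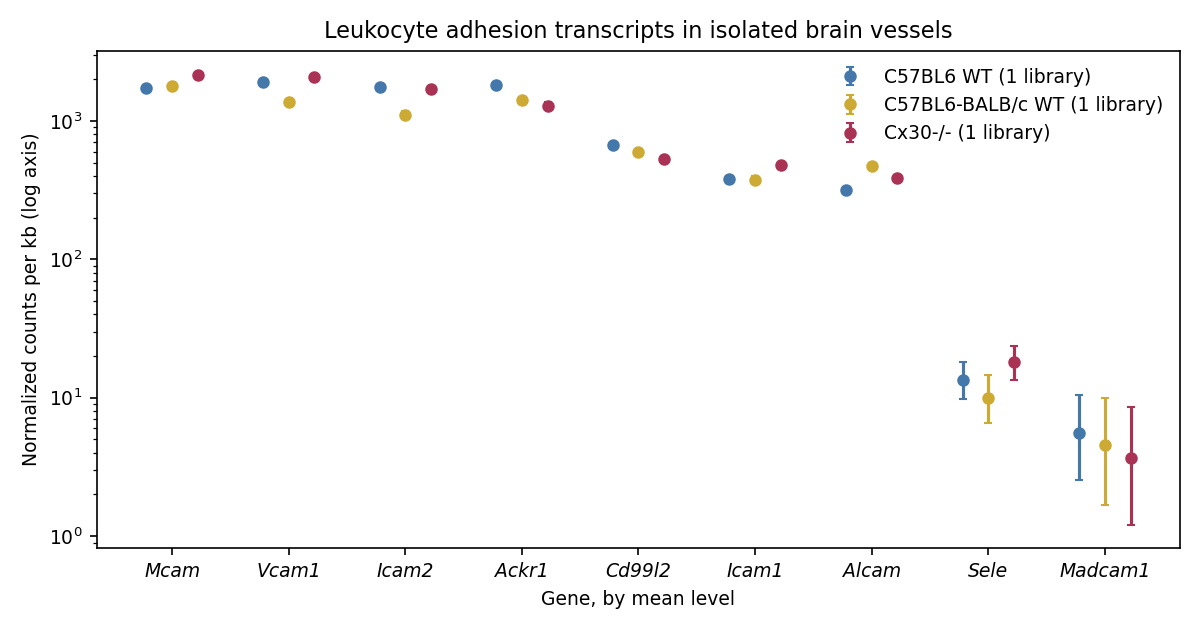
Normalized counts per kb (log axis) of the 9 adhesion genes in the C57BL6 WT, C57BL6-BALB/c WT and Cx30-/- libraries, 1 point per library, with 95% exact Poisson intervals of the counts. Mcam, Vcam1, Icam2 and Ackr1 lie between 1105 and 2149 in every library, and Sele and Madcam1 lie at 18.0 or less.

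Among all genes with at least 50 normalized counts, Vcam1 ranked within the top 3.09% per kb in C57BL6 WT, 5.86% in C57BL6-BALB/c WT and 2.69% in Cx30-/- vessels. Icam2 ranked within the top 3.62%, 8.51% and 3.66%, and Mcam within the top 3.70%, 3.59% and 2.53%. Icam1 was a gene of middle rank, within the top 36.7%, 36.7% and 28.3%.

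With the libraries scaled on all genes, none of the 9 adhesion genes had a ratio of 2 or more between Cx30-/- and WT vessels. Scaling on endothelial markers put Alcam and Cd99l2 past 2-fold against C57BL6-BALB/c WT. The share of all genes past 2-fold with that scaling was not counted. A call needed a ratio of 2 or more, and 50 or more normalized counts on at least 1 side of the comparison. Against C57BL6 WT, 0 of the 8 adhesion genes past the minimum were called, where the rule called 2.67% of 14768 genes. Against C57BL6-BALB/c WT it was 0 of 8, beside 8.69% of 14883 genes, and between the WT libraries 0 of 7, beside 3.43% of 14783 genes. In the same direction against both WT libraries, 0 of 8 were called and 1.42% of 14680 genes. Shares this small leave little room in a list of this length, so that 0 calls is near what the background gives.

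Differences below 2-fold were counted over the 7 genes with a mean of at least 50 normalized counts in the 3 libraries, which leaves out Sele and Madcam1. Icam1, Vcam1 and Mcam were higher in Cx30-/- than in both WT libraries, as were 36.3% of 14534 genes. Ackr1 and Cd99l2 were lower than in both, as were 37% of all genes. Icam2 and Alcam lay between the WT libraries, as did 26.6%. These shares are near those of all genes. On the endothelial list's scale 0 of the 7 were higher and 4 lower than in both (Icam2, Vcam1, Ackr1 and Cd99l2). That scale moves the log2 ratios of every gene by the same amounts, -0.22 and -0.87. The shares of all genes on it were not counted. The intervals excluded a ratio of 1 for 6 of the 7 genes against C57BL6 WT (53.9% of all genes), for 7 against C57BL6-BALB/c WT (71.9%) and for 5 between the WT libraries (64.5%). Differences beyond counting error were thus also common between the WT libraries. Whether an interval excludes a ratio of 1 depends on depth, and the shares of all genes were not matched to the 7 genes for depth.

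The median log2 ratio of the 7 genes was 0.11 against C57BL6 WT, 0.26 against C57BL6-BALB/c WT and -0.16 for C57BL6-BALB/c over C57BL6 WT, while the medians of all genes were -0.01, 0.004 and -0.003. The median size of the log2 ratio, without its sign, was 0.31, 0.28 and 0.36 for the 7 genes, and 0.18, 0.36 and 0.26 for all genes. On the endothelial scale, defined in the next paragraph, the sizes were 0.12, 0.61 and 0.49.

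The endothelial markers themselves differed between the libraries, which bears on the adhesion genes as far as their RNA comes from endothelium. How much of each gene's RNA did so was not measured, and Mcam, for 1, is also found on mural cells. The median log2 ratio of the 12 markers was 0.22 against C57BL6 WT, 0.86 against C57BL6-BALB/c WT and -0.67 between the WT libraries, and 12 of 12 were higher in Cx30-/- than in both WT libraries. In bulk RNA, fewer cells of a type and less RNA per cell cannot be told apart. Scaling the libraries on these markers, called the endothelial scale here, moved the log2 ratio of every gene by -0.22, -0.87 and 0.65. How many of all genes were higher or lower on that scale was not counted. The counts that follow therefore have no background beside them and cannot be read as particular to the adhesion genes. On that scale 3 of the 7 adhesion genes were higher and 4 lower against C57BL6 WT (median -0.11), 0 higher and 7 lower against C57BL6-BALB/c WT (median -0.61), and 6 higher and 1 lower between the WT libraries (median 0.49). The adhesion genes thus differed less from the mixed WT library than the endothelial markers did. Ackr1 and Cd99l2 were lower in Cx30-/- than in both WT libraries on either scale, whereas Icam1, Vcam1 and Mcam were higher than in both only on the scale of all genes.

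Sele encodes E-selectin, which binds glycans on leukocytes during rolling (ENSMUSG00000026582; chromosome 1 of GRCm38, 164048234 to 164057677, plus strand). It had 45 counts in C57BL6 WT, 27 in C57BL6-BALB/c WT and 50 in Cx30-/- vessels, which are 39.3, 29.2 and 52.5 normalized counts. Only the Cx30-/- library passed the minimum of 50. With C57BL6 WT the log2 ratio was 0.42 (95% exact binomial interval -0.19 to 1.03), with the mixed WT library it was 0.85 (0.14 to 1.58), so that a 2-fold difference lay within both intervals. These were 0.20 (-0.41 to 0.81) and -0.02 (-0.73 to 0.71) on the endothelial scale. Reads covered 54.2%, 39.8% and 57.4% of the transcript.

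Madcam1, the mucosal addressin bound by the integrin alpha4-beta7, had 9, 6 and 5 counts in C57BL6 WT, C57BL6-BALB/c WT and Cx30-/- vessels (ENSMUSG00000020310; chromosome 10, 79664559 to 79668537, plus strand). Reads covered 23.9%, 13.5% and 15.3% of its transcript. The log2 ratios of -0.58 (-2.51 to 1.15) and -0.31 (-2.36 to 1.67) leave a difference in either direction undetectable at this depth.

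Icam1 binds the leukocyte integrins LFA-1 and Mac-1 during arrest and crawling (ENSMUSG00000037405; chromosome 9, 21015985 to 21028817, plus strand). Its level was 954 normalized counts for C57BL6 WT, 943 for C57BL6-BALB/c WT and 1204 for Cx30-/- vessels. The WT libraries were close, with a log2 ratio of -0.02 (-0.15 to 0.11), and the Cx30-/- library stood above both, by 0.34 (0.22 to 0.46) and 0.35 (0.22 to 0.48). On the endothelial scale these became 0.12 (-0.004 to 0.24) and -0.52 (-0.64 to -0.39), so that the second turned its sign. An antisense gene, Gm47079, overlaps 511 bases of the Icam1 row (20.2%), and since the library does not mark strand its reads cannot be told apart from those of Icam1.

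Icam2, a constitutive ligand of LFA-1 on endothelium, was the gene that differed most between the WT libraries (ENSMUSG00000001029; chromosome 11, 106377656 to 106388075, minus strand). In C57BL6 WT, C57BL6-BALB/c WT and Cx30-/- vessels it reached 1992, 1262 and 1953 normalized counts. The log2 ratio of Cx30-/- over C57BL6 WT was -0.03 (-0.12 to 0.06), or -0.25 (-0.34 to -0.16) on the endothelial scale, and the mixed WT library stood below both. The ratios with that library were 0.63 (0.52 to 0.74) for Cx30-/- and -0.66 (-0.76 to -0.56) for the WT comparison. On the endothelial scale these were -0.24 and -0.01.

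Vcam1 binds the integrin VLA-4 and was among the most abundant of the 9 genes (ENSMUSG00000027962; chromosome 3, 116109949 to 116129688, minus strand). Its level was 5803 normalized counts for C57BL6 WT, 4144 for C57BL6-BALB/c WT and 6275 for Cx30-/- vessels. As for Icam2, the mixed WT library was the low one, with log2 ratios of 0.60 (0.54 to 0.66) for Cx30-/- over it and -0.49 (-0.54 to -0.43) in the WT comparison. Against C57BL6 WT the Cx30-/- library was higher by 0.11 (0.06 to 0.16). All 3 signs turned on the endothelial scale, to -0.27, 0.16 and -0.11.

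Alcam, a homophilic adhesion molecule that also binds CD6 on lymphocytes, had the opposite pattern between the WT libraries (ENSMUSG00000022636; chromosome 16, 52248996 to 52454074, minus strand). In C57BL6 WT, C57BL6-BALB/c WT and Cx30-/- vessels it reached 1307, 1940 and 1597 normalized counts. The Cx30-/- library lay between them, with log2 ratios of 0.29 (0.18 to 0.39) and -0.28 (-0.38 to -0.18), and the WT libraries differed by 0.57 (0.47 to 0.67). Alcam was the 1 gene of the 7 whose interval lay above a ratio of 1 for the mixed over the C57BL6 WT library. On the endothelial scale the difference from the mixed WT library passed 2-fold, with a log2 ratio of -1.15 (-1.25 to -1.05).

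Mcam (CD146), found on endothelial cells and on pericytes and smooth muscle, reached 5179, 5352 and 6422 normalized counts in C57BL6 WT, C57BL6-BALB/c WT and Cx30-/- vessels (ENSMUSG00000032135; chromosome 9, 44134469 to 44142727, plus strand). The WT libraries differed by a log2 ratio of 0.05 (-0.01 to 0.10), and the Cx30-/- library was above them by 0.31 (0.26 to 0.36) and 0.26 (0.21 to 0.32). On the endothelial scale these were 0.09 (0.04 to 0.14) and -0.61 (-0.66 to -0.55). The summed level of the mural list was also highest in the Cx30-/- library, but 3 of its 10 genes were higher there than in both WT libraries, and against C57BL6-BALB/c WT 5 were higher and 5 lower. Its part in the Mcam values was not tested.

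Ackr1 (DARC), which binds chemokines without signaling and carries them across venular endothelium, was lower in Cx30-/- vessels (ENSMUSG00000037872; chromosome 1, 173331886 to 173333750, minus strand). In C57BL6 WT, C57BL6-BALB/c WT and Cx30-/- vessels it reached 2117, 1648 and 1513 normalized counts. The log2 ratios were -0.48 (-0.58 to -0.39) and -0.12 (-0.23 to -0.02), and -0.36 (-0.45 to -0.27) between the WT libraries. The first pair became -0.71 (-0.80 to -0.61) and -0.99 (-1.10 to -0.89) on the endothelial scale. The neighbouring gene Cadm3, of the same strand, has a last exon that covers 113 bases of the Ackr1 row (9.80%). Cadm3 itself was called lower in Cx30-/- vessels, with 4359, 4680 and 2144 normalized counts and log2 ratios of -1.02 and -1.13. If its reads were spread evenly over its own row, those on the shared bases would make up 5.60% of the Ackr1 counts in C57BL6 WT, 7.71% in C57BL6-BALB/c WT and 3.85% in Cx30-/- vessels. Without them, the Ackr1 ratios were -0.46 (-0.56 to -0.36) and -0.06 (-0.17 to 0.04), and the second interval then held a ratio of 1. This calculation was added after the values were seen.

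Cd99l2, which takes part in the passage of leukocytes through the vessel wall, was also lower in Cx30-/- vessels (ENSMUSG00000035776; chromosome X, 71420060 to 71492849, minus strand). In C57BL6 WT, C57BL6-BALB/c WT and Cx30-/- vessels it reached 2402, 2155 and 1900 normalized counts. The Cx30-/- library was below the WT libraries by log2 ratios of -0.34 (-0.42 to -0.25) and -0.18 (-0.27 to -0.09). On the endothelial scale the second was -1.05 (-1.14 to -0.96), past 2-fold, and the first -0.56.

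**Figure D2:**
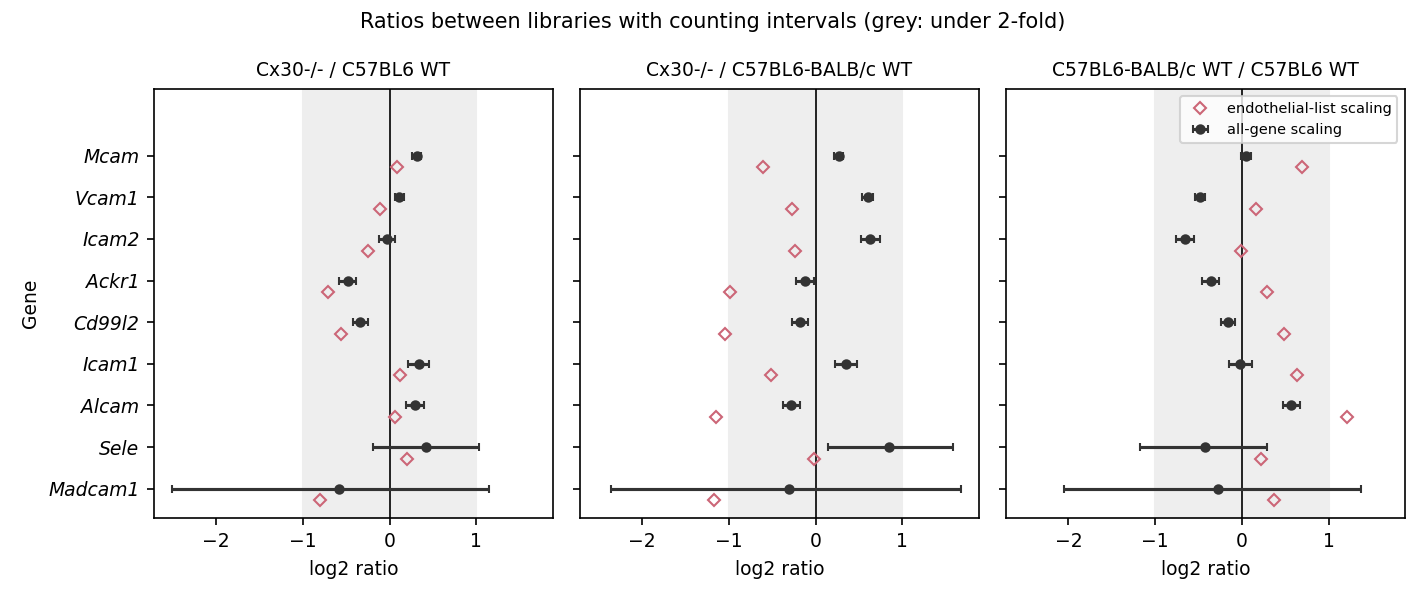
log2 ratios of the 9 adhesion genes in the 3 comparisons, 1 library each, scaled on all genes (filled, with 95% exact binomial intervals of the counts) and on the endothelial list (open diamonds). All filled points lie within the grey 2-fold band, and against C57BL6-BALB/c WT all diamonds lie below 0, with those of Alcam and Cd99l2 beyond 2-fold and that of Madcam1 also beyond it but under the count minimum.

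Icam2 had 4 rows, Mcam 5 and Cd99l2 6, and a read on a shared exon is counted in each of them. The second Icam2 row held 99.6% to 99.7% of the counts of the first, and the log2 ratio with the mixed WT library was 0.63 in both. For Mcam, the first 2 rows gave 0.26 against the mixed WT library, and the other 3, shorter rows gave 0.11, 0.11 and 0.10. Between the WT libraries the Cd99l2 row ENSMUST00000114587 gave 0.03, where the main row gave -0.16. Rows of 1 gene share reads and are not independent. Coverage showed Icam1 and Vcam1 read over at least 99.5% of their length in every library, and Alcam over 75.0% to 76.8%.

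**Figure D3:**
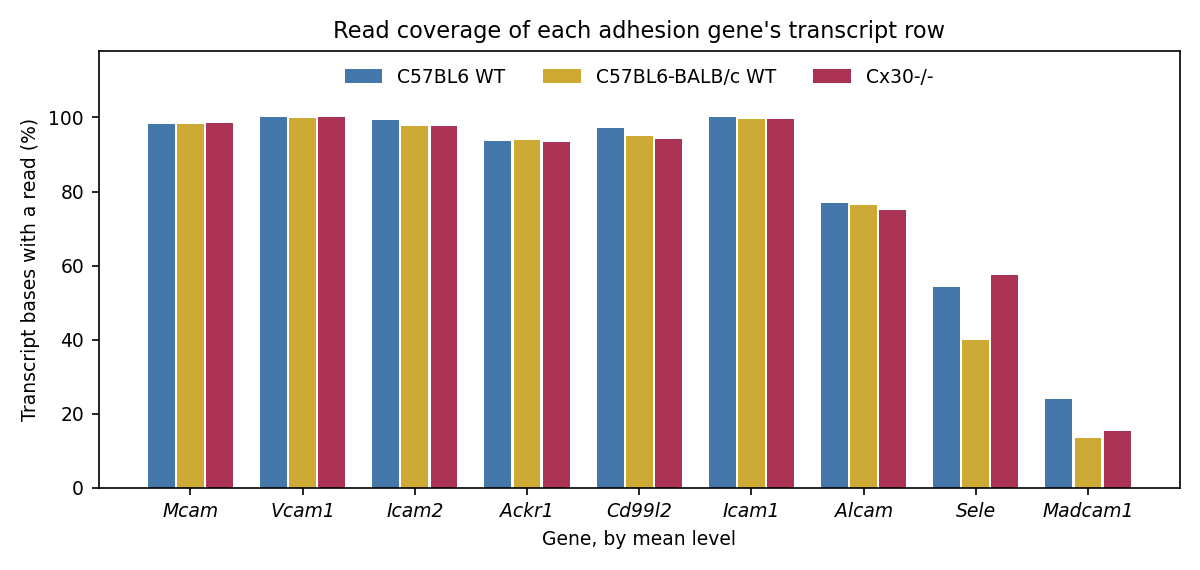
Share of bases of each adhesion gene's transcript row with at least 1 read, in percent, for the 3 libraries. The 7 more abundant genes are covered over 75.0% or more, while Sele reaches 57.4% and Madcam1 23.9% at most.

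Genes that act beside the adhesion molecules were described from fixed lists. Of 21 genes of endothelial junctions and diapedesis, 20 had a mean of at least 50 normalized counts. Their median log2 ratio was 0.15 against C57BL6 WT and 0.64 against C57BL6-BALB/c WT, and 16 of the 20 were higher in Cx30-/- than in both. By the smaller of the 2 log2 ratios, Nectin2, a nectin of cell contacts, was highest (0.41 and 0.72), and Cd47, a ligand of leukocyte SIRP-alpha, was among the 2 lower genes (-0.26 and -0.21). None (0) was called in both comparisons. This list holds 4 of the endothelial markers.

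In the cytokine and NF-kappaB list, 17 of 19 genes had a mean of at least 50 normalized counts, with medians of 0.11 and 0.57. Of the 18 past the minimum, 0 were called against C57BL6 WT (2.67% of all genes), and 3 higher and 1 lower against C57BL6-BALB/c WT (8.69%). Il1b, a cytokine that induces adhesion molecules, had 37, 23 and 56 counts, which are 32.3, 24.8 and 58.7 normalized counts. It was 1 of the 3 called higher, and passed the minimum of 50 only through the Cx30-/- library, where it was highest. Its log2 ratios were 0.86 (0.238 to 1.503) and 1.24 (0.518 to 2.010). The other genes called higher had more counts. Il1r1 had 3570, 2410 and 5158 normalized counts, and Tlr4 had 178, 149 and 309. Tnf had 4, 6 and 5 counts. Il1rap, the accessory chain of the interleukin-1 receptor, was lowest, with -0.54 and -1.07.

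Of 13 listed leukocyte receptors that bind these ligands, 12 had a row, and medians over the 10 with a mean of at least 50 normalized counts were 0.10 and 0.46. Itgb1, the beta chain of VLA-4, which many cell types share, had 9705, 9169 and 12470 normalized counts, and Itga4, its alpha chain, had 729, 757 and 756 normalized counts. Some genes of blood cells were higher in Cx30-/- vessels: S100a8 and S100a9, abundant in neutrophils, had log2 ratios of 1.57 and 2.58, and 1.60 and 2.36. The summed level of the leukocyte list, of which 8 of 9 genes had a row, was 665, 431 and 1412 normalized counts, that of the erythroid list 7712, 4357 and 18477, and that of the platelet list 642, 501 and 1168. Ptprc of the leukocyte list was also higher, with 293, 220 and 410 normalized counts and log2 ratios of 0.49 and 0.90. The other genes of this list had few counts and were not higher in Cx30-/- vessels or were near 0. Among them, Mpo, a gene of neutrophil granules, had 23, 5 and 4 counts, and Cd79a of B cells 20, 12 and 12. Cd3e of T cells had 9, 8 and 8, and Ly6g of neutrophils 0, 1 and 2. The part of blood cells in the values of the adhesion genes was not tested.

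Of 8 adhesion relatives, several of them best known outside endothelium, 7 had a mean of at least 50 normalized counts. Of these, 5 were lower and 2 higher in Cx30-/- than in both WT libraries, with medians of -0.26 and -0.76, and 0 were called against C57BL6 WT and 2 lower against C57BL6-BALB/c WT. Bcam, a laminin receptor, was highest (0.31 and 0.80), and Ncam1, the neural cell adhesion molecule, lowest (-0.63 and -1.22). The neuron list had medians of -0.53 and -0.79, and its part in these values was not tested.

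**Figure D4:**
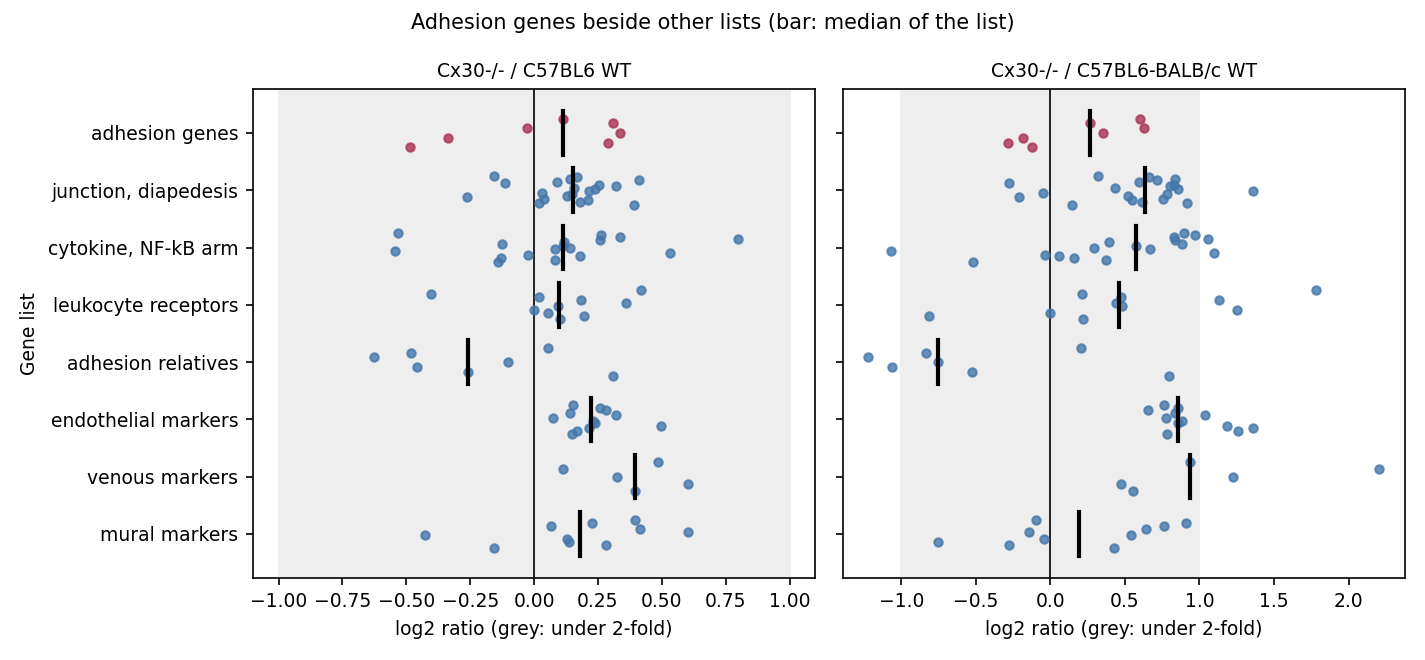
log2 ratios of Cx30-/- over each WT library for genes with a mean of at least 50 normalized counts, by list, 1 point per gene and a bar at the median. The medians of the adhesion genes, 0.11 and 0.26, lie below those of the endothelial markers, 0.22 and 0.86, and above those of the adhesion relatives, -0.26 and -0.76.

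Vessel segments were described in the same way, since Ackr1 and the selectins belong to venules. The 5 venous markers had medians of 0.40 and 0.93 and were all higher in Cx30-/- than in both WT libraries, Vwf with 0.49 and 0.93 and Tmem252 with 0.11 and 2.21. The 6 arterial markers had medians of 0.29 and 0.63, also with 6 of 6 higher in both. Ackr1, with -0.48 and -0.12, thus was not higher as the venous markers were. Without the estimated share of Cadm3 reads its second ratio was -0.06 (-0.17 to 0.04), an interval that holds a ratio of 1.

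For each of the 7 genes, the nearest of 146 genes of the other lists was found by the distance between their pairs of log2 ratios, over 3 libraries. Vcam1 lay nearest to Msn, encoding moesin (0.09 and 0.59), Alcam to Acta2 of smooth muscle (0.28 and -0.28), Mcam to Gja5 (0.29 and 0.20), and Icam1 to Itgb1 (0.36 and 0.44). Icam2 lay nearest to Irf1 (0.08 and 0.67), Cd99l2 to Cd47 (-0.26 and -0.21) and Ackr1 to Cnp of oligodendrocytes (-0.45 and -0.06). These distances describe 3 libraries, and likeness over so few values is weak.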

How the data were processed

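Brain vessels of 1 pool of mice per group were measured by RNA sequencing, and samples were grouped by genotype and strain in the labels. According to the methods, reads were trimmed, filtered and aligned with Bowtie within Eoulsan, reads matching more than once were removed, and the kit does not mark strand. The authors deposited raw counts of alignments per Ensembl transcript, together with a fraction, the count over a library-wide total, which was not used beyond a check. They also deposited transcript lengths and bases without a read. Per the labels, base calling used CASAVA 1.8.2 and the build was mm10, but positions in the files run past the end of annotated chromosome 1 (197054472 against 195323493), so coordinates were taken from GENCODE M21 on GRCm38 by transcript identifier, which named 69375 of 82813 rows.

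The row with the largest total stood for a gene. Scaling used median-of-ratios size factors (1.15 for C57BL6 WT, 0.926 for C57BL6-BALB/c WT, 0.953 for Cx30-/-). Ratios carry 95% exact conditional binomial (Clopper-Pearson) intervals of the raw counts, from scipy 1.17.1, and no pseudocount. Deposited counts, with a read on a shared exon counted for each transcript, summed to 60725557, 53484865 and 50375426. The endothelial scale used size factors from the 12 endothelial markers. The scripts were tested on simulated data.

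Genes named are the 10 adhesion genes, Gjb6, S100a8 and S100a9 (called in both Cx30-/- comparisons), extreme genes of some of the 17 lists, and the nearest gene of each adhesion gene. In the erythroid list 4 genes, and in the platelet list 2, were also called higher in both comparisons, beside 1.42% of all genes. Of these, Gp9 and Tubb1 of the platelet list and Hba-a1 of the erythroid list passed the minimum of 50 only through the Cx30-/- library, where they were highest. The others are not named. A gene of the leukocyte receptor list is not reported here. Tnf, Mpo, Cd79a, Cd3e, Ly6g, Cadm3, Ptprc, Il1r1 and Tlr4 were named after their values were seen. The genes and lists were chosen with earlier results of these data known. Alternatives were other scalings (edgeR 4.0.16 TMM, total count, upper quartile, the compared pair, the endothelial list), other rows, a pseudocount of 1, other minimums and other fold thresholds.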

Additional observations from a re-analysis of the deposited data

How the results depend on the processing

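The number of adhesion genes called at 2-fold was 0 in every comparison under TMM, total count, upper quartile, size factors of the compared pair, the sum of rows, the longest row, each count minimum and a fold threshold of 4. Scaling on the endothelial list gave 2 genes called against C57BL6-BALB/c WT (Alcam and Cd99l2, both lower) and 1 between the WT libraries (Alcam, higher). A fold threshold of 1.5 gave 3 against C57BL6-BALB/c WT (Icam2, Vcam1 and Sele, all higher) and 1 between the WT libraries (Icam2, lower). In the same direction against both WT libraries, 0 were called under all settings that were run. Of the 27 log2 ratios, 12 turned their sign on the endothelial scale, by construction of its factors, and 1 with the total count (Mcam between the WT libraries, -0.01), and 0 under the other alternatives. For Sele and Madcam1, depth limits what can be seen. No paired analysis was possible because each group has 1 library.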
